A study of Mus musculus with 209 samples.

Results

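The 7 genes described here encode chemokine receptors: Ccr1, Ccr2, Cx3cr1, Cxcr2, Cxcr3, Cxcr4 and Cxcr5. They were taken by symbol from a table of 55011 genes, all 7 were found, and each was read in every library. Chemokine receptors are G protein-coupled receptors on leukocytes. A receptor that binds its chemokine signals through inhibitory G proteins to the actin skeleton and integrins, so the cell moves toward the source, and arrestins and regulators of G protein signalling end the signal. Which receptors a leukocyte carries sets which tissues and zones it can enter: Ccr2 lets Ly6C+ monocytes leave the bone marrow, Cxcr2 draws neutrophils to inflamed tissue, and Cxcr5 guides B cells into follicles.

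RNA was counted in 209 libraries of about 1000 sorted cells each from C57Bl/6J mice 5 to 8 weeks old. In the screen, 1 cytokine (IL1b, IL6 or TNFa, 5 µg) was injected into a vein, controls had the carrier only (PBS, 120 µL), and cells were taken 2 h later. Of its 14 cell types, MFpc (macrophages) and MC (mast cells) came from the peritoneal cavity. The spleen gave the myeloid types Mo.6C+ (monocytes positive for Ly6C), GN (neutrophils), MFrp (macrophages of the red pulp), DC.8+ (CD8+ dendritic cells) and pDC (plasmacytoid dendritic cells). It also gave the B cells MZB (marginal zone) and B.fo (follicular), the T cells T.4 (CD4), T.8 (CD8), Treg (regulatory) and Tgd (gamma-delta), and NK cells. Each group had 4 or 5 libraries with PBS and 3 with a cytokine, except 2 for IL1b in MC and DC.8+, for IL6 in B.fo, MC and NK, and for TNFa in T.8. No IL1b libraries of pDC were analysed here. A time course (20 libraries) followed Mo.6C+ and MFpc 2, 4, 8 and 24 h after the same dose of TNFa, against PBS at 24 h, with 2 libraries a group. Another experiment (6 libraries) compared 3 Mo.6C+ libraries after LPS (1 ng), part of the bacterial outer membrane, with 3 after PBS; the time after LPS is not stated in the labels.

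Library totals ran from 1094567 to 9291121 counts, with a median of 4702887. The defining markers of 13 of the 14 cell types were higher in every screen library of that type than in any library of another type. The exception was the CD4 T cell list, with Treg, which also carry Cd4. Over all treatments its mean log2 CPM was 7.12 in the lowest T.4 library and 7.80 in the highest Treg library. With PBS it averaged 8.30 in T.4 and 7.67 in Treg. Whether replicates are separate mice is not stated, so p-values measure the spread between these libraries, which may be technical. Sorted cells were sequenced in bulk, so fewer cells that carry a receptor and less receptor RNA per cell cannot be told apart. Unless DESeq2 is named, an adjusted p below comes from edgeR's quasi-likelihood test with Benjamini-Hochberg adjustment over all genes tested. A gene was called changed when it was under 0.05. CPM are counts per 1000000 counts of the library, scaled within each fit, a log2 fold change is given with its standard error (SE), and ± after a CPM is the SD over the libraries named.

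With PBS alone, each receptor had its own order of cell types. On a scale set over all PBS libraries of the screen, Cxcr2, the receptor for the neutrophil-attracting CXC chemokines, was at 7983 ± 499 CPM in GN (n = 5), and the next type by its mean, MFrp, was at 1.84 ± 3.81 CPM (n = 5). That mean rests on library 3, at 8.64 CPM; the other MFrp libraries held at most 0.557 CPM. In MFpc, MC, Tgd and T.8 no library held a Cxcr2 count. Ccr1, a receptor for several inflammatory CC chemokines, was also highest in GN, at 2359 ± 246 CPM (n = 5), then in MFpc at 631 ± 45.0 CPM (n = 5). MZB (101 ± 15.9 CPM, n = 4) and Mo.6C+ (81.6 ± 43.1 CPM, n = 5) followed with ranges that overlapped each other, and NK and the 4 T cell types averaged below 4 CPM. These ranges did not overlap between GN and MFpc, or between MFpc and MZB.

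Ccr2 and Cx3cr1, the fractalkine receptor, shared their 2 highest types. Ccr2 was at 2141 ± 418 CPM in Mo.6C+ (n = 5) and 784 ± 68.9 CPM in NK (n = 5), with no overlap between them or with the next type, pDC, at 274 ± 75.8 CPM (n = 5). From pDC down to DC.8+, Tgd, Treg, T.8, MFrp and MFpc (29.9 ± 20.3 CPM, n = 5), neighbours in the order overlapped; MC held no Ccr2 count in 4 libraries. Cx3cr1 was at 1345 ± 208 CPM in Mo.6C+ (n = 5), and NK (190 ± 38.6 CPM, n = 5), T.8 (142 ± 71.3 CPM, n = 4), MFrp (90.4 ± 19.3 CPM, n = 5) and DC.8+ (85.0 ± 69.8 CPM, n = 4) overlapped with their neighbours. DC.8+ libraries 4 and 5, which earlier results of these data listed as carrying RNA of other cells, held 104 and 175 CPM. Libraries 1 and 2 held 22.5 and 38.3 CPM. In T.8 with PBS the DC.8+ markers had a mean log2 CPM of 5.77, against 0.56 in T.4, and their part was not tested. Per kilobase of annotated exon, Mo.6C+ held nearly the same of both genes, 317 CPM per kb of Ccr2 and 299 of Cx3cr1, against 28.8 of Ccr1.

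Cxcr3, the receptor for the interferon-induced chemokines Cxcl9 and Cxcl10, was spread over many types. It led in pDC (156 ± 33.3 CPM, n = 5), T.8 (131 ± 27.9 CPM, n = 4), NK (104 ± 10.2 CPM, n = 5), Tgd (99.7 ± 22.0 CPM, n = 5) and DC.8+ (81.4 ± 31.9 CPM, n = 4), whose neighbours all overlapped. Cxcr5, the receptor for the follicular chemokine Cxcl13, was at 869 ± 82.4 CPM in MZB (n = 4) and 652 ± 62.0 CPM in B.fo (n = 5), ranges that did not overlap, and at 46.0 ± 12.5 CPM in Treg (n = 5), the next in order. Cxcr4, the receptor for Cxcl12 that holds leukocytes in the bone marrow, was low throughout: 41.4 ± 15.5 CPM in GN (n = 5) and at most 3.28 ± 2.91 CPM elsewhere (B.fo, n = 5). The plot of PBS levels shows every library.

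**Figure D1:**
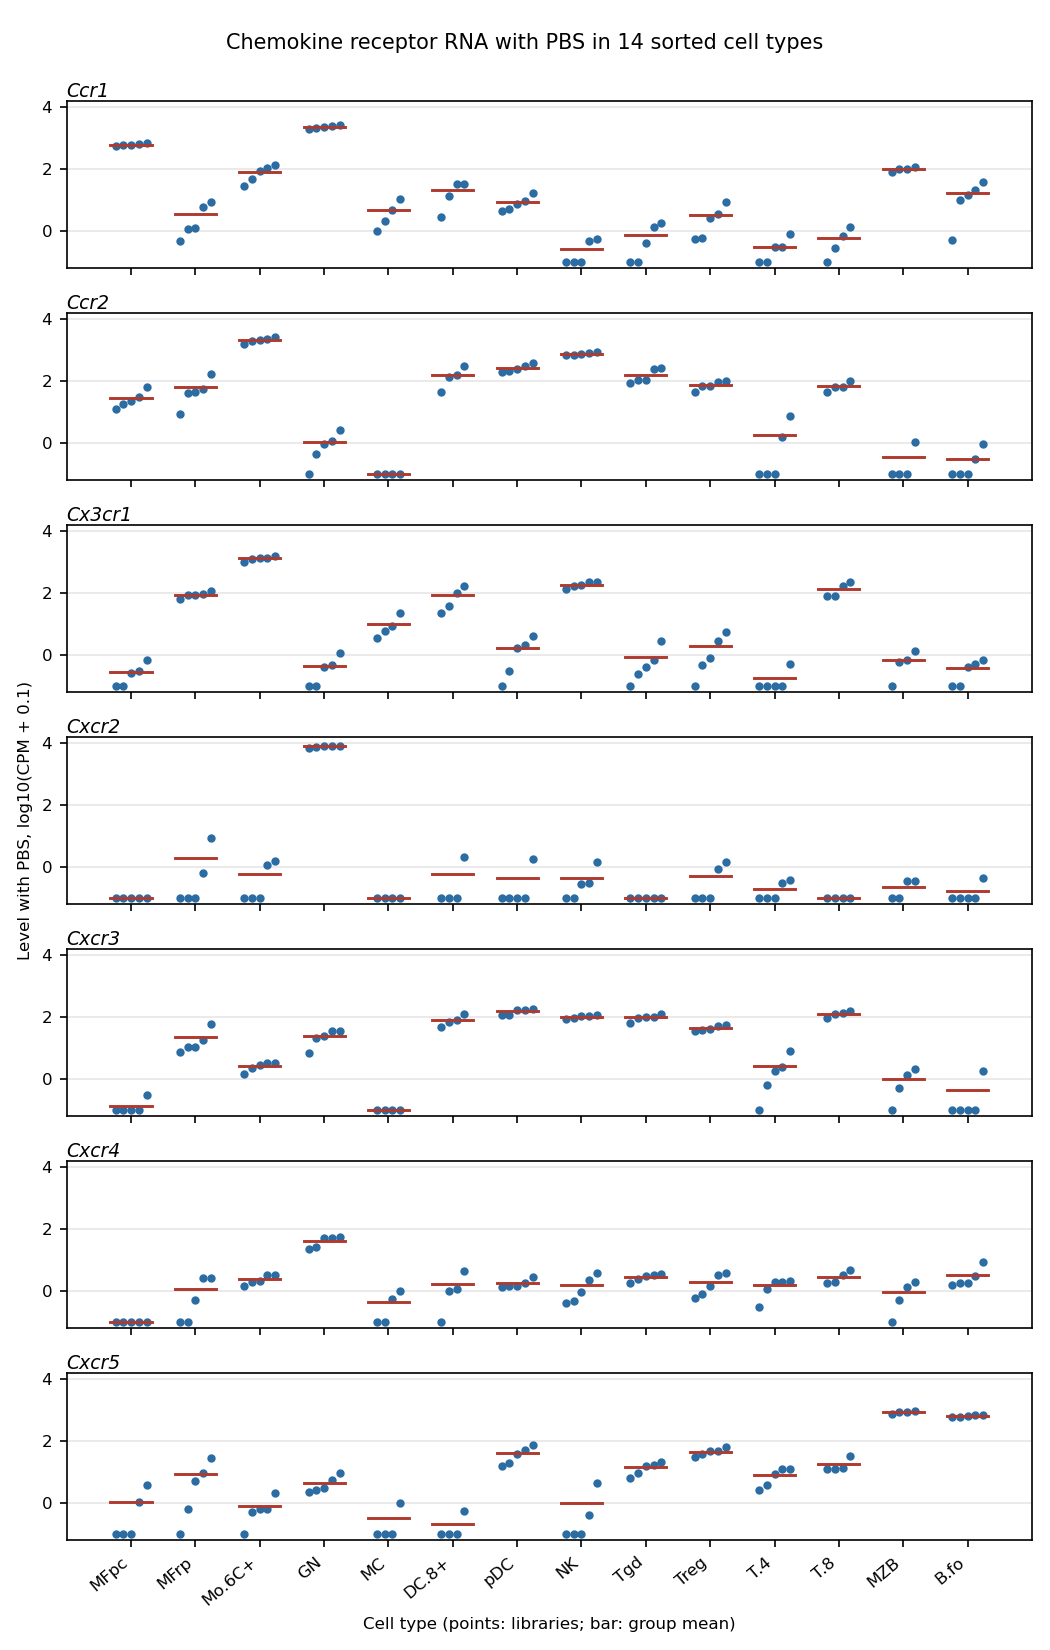
Level of the 7 receptors with PBS in each library of the screen, as log10(CPM + 0.1), by cell type; points are libraries, red bars the log10 of the group mean. Cxcr2 stands alone in GN, Cxcr5 is highest in both B cell types, and Cxcr3 is spread over pDC, T.8, NK, Tgd and DC.8+.

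Across the 14 PBS groups, the genes whose mean log2 CPM ran most like a receptor's were, among 10913 genes with at least 20 CPM in a group, Crlf2 (Pearson r = 0.915), Bst1 and Mafg for Ccr1, Atp2b4 (0.881), Pdk3 and Disc1 for Ccr2, and Dusp5 (0.885), Cd7 and Ncald for Cxcr3. For Cxcr2, r was 0.995 to 0.996 with Gm20406, Ankrd22 and Cstdc4, all highest in GN, and rests on that 1 cell type. Cxcr4 ran most like Frat1 (0.950), Grk2, a kinase that desensitises such receptors (0.948), and Supt4a (0.941). The B cell coactivator Pou2af1 (0.950), Gm28693 and Pik3c2b led for Cxcr5, and Itga1 (0.891), Gm33858 and Sulf2 for Cx3cr1. Gm33858 lies on the other strand and shares 78 exon bases with Cx3cr1. The strand setting of the counting is not known, so reads of this pair cannot be told apart there. These are descriptions over 14 points that share libraries and scaling.

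At 2 h, the share of receptor tests called differed between the 3 cytokines, in the same order as the share over all genes. With IL1b, 61 pairs of receptor and cell type passed the filter on low counts over 13 cell types; 8 rose and 6 fell, and of all gene and cell type pairs 5.76% rose and 4.26% fell. With IL6, 3 of 66 rose and 2 fell, beside 1.46% and 0.950% of all. With TNFa, 8 of 66 rose and 11 fell, beside 8.26% and 7.95%. The filter kept between 2 receptors (MC) and 7 (MFrp) in a cell type. The 3 comparisons share their PBS libraries. The share of all genes called, in either direction, differed widely between cell types. With TNFa it was 53.4% in MFpc, 48.7% in Mo.6C+, 37.5% in GN, 21.6% in MFrp, 15.6% in NK, 15.5% in DC.8+, 14.4% in pDC, 5.10% in Treg, 3.42% in Tgd and 2.74% in MZB. With IL1b it was 37.3% in MFpc, 37.0% in Mo.6C+, 22.4% in GN, 10.9% in MFrp, 4.82% in DC.8+ and 2.14% in Tgd, and with IL6 15.3% in MFpc, 9.51% in GN and 5.87% in Mo.6C+. The map of fold changes shows which pairs were tested and called.

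**Figure D2:**
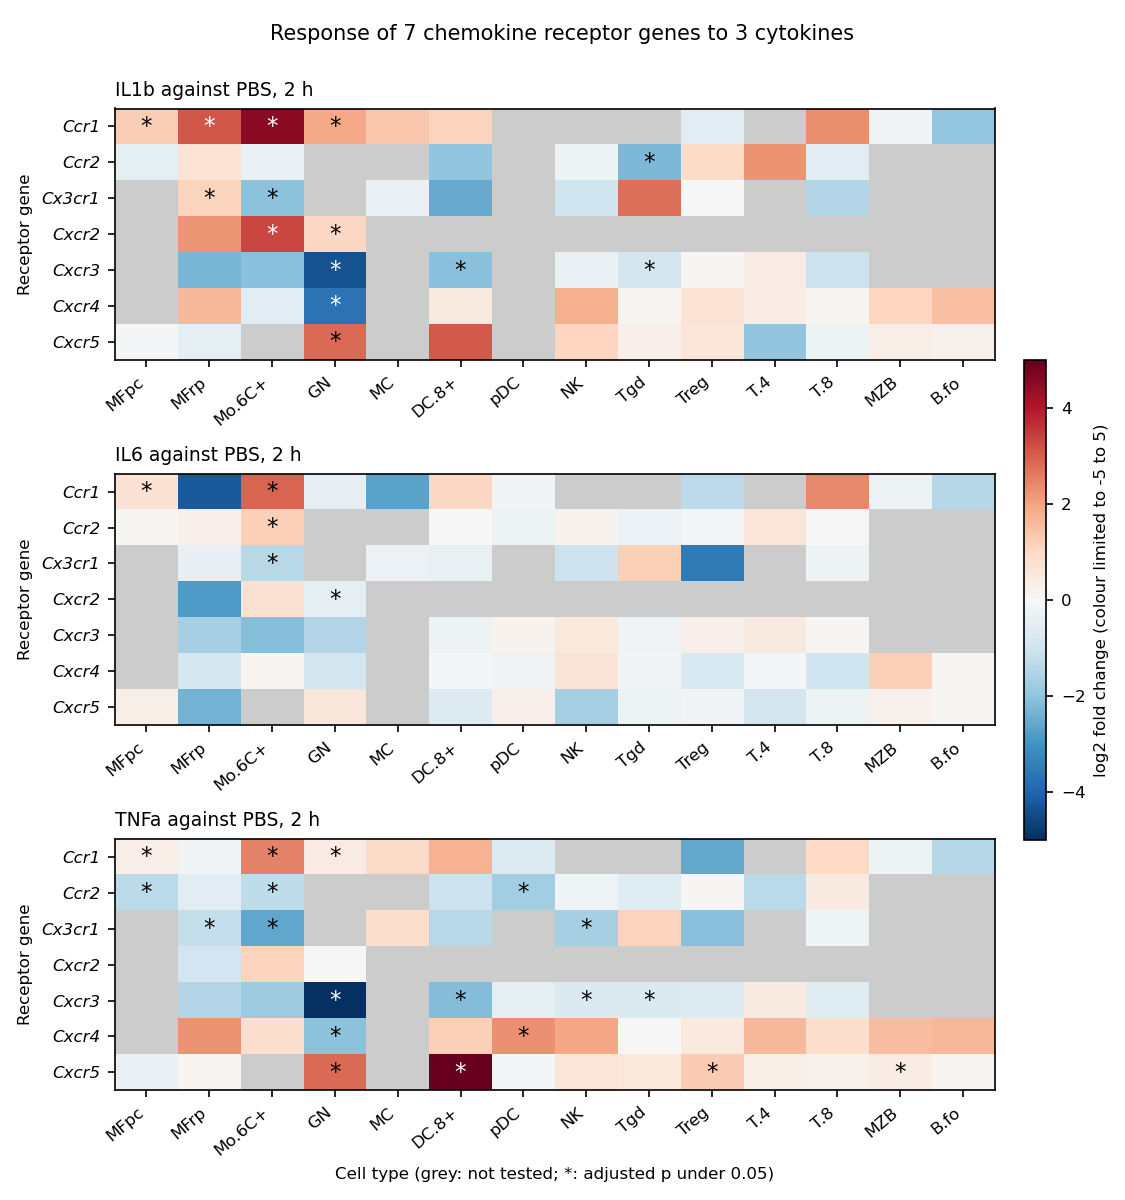
Log2 fold change against PBS at 2 h of the 7 receptors (rows) in each cell type (columns) with IL1b, IL6 and TNFa; grey was not tested, an asterisk marks an adjusted p under 0.05, and colours stop at -5 and 5. Ccr1 has calls only upward, and Mo.6C+ and GN hold calls for most receptors they carry.

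Ccr1 (chr9:123962124-123968692 on GRCm38, minus strand, 2 exons) was raised in macrophages, monocytes and neutrophils, and its calls at 2 h were all upward. RefSeq's 250 bases before its start (chr9:123968693-123968942, minus strand, GRCm38.p6) are shown with those of Cxcr4 (chr1:128592300-128592549, minus strand), since the pair moved in opposite directions in GN after IL1b and neither window holds an annotated exon.
Ccr1: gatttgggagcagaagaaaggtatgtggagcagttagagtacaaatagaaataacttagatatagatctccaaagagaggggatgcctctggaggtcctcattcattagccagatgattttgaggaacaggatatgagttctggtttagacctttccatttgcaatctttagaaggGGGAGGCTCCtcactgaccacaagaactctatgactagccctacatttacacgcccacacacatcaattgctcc
Cxcr4: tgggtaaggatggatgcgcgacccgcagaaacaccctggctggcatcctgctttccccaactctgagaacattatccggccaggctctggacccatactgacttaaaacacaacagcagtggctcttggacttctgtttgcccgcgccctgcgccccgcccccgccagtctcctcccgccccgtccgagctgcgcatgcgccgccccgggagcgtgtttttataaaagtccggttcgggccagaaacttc
Capitals mark the only match found to the NF-kB consensus, 74 bases before the Ccr1 start. Both strands were searched for it and for the STAT (TTCNNNGAA), AP-1 (TGANTCA) and CEBP (TTGCNNAA) patterns. Of 32851 RefSeq promoter windows of this length, 7.25% held an NF-kB match, 7.02% a STAT, 6.75% an AP-1 and 9.56% a CEBP match. RefSeq gave windows for 6 of the 7 receptors, and the windows of Ccr2, Cx3cr1, Cxcr2, Cxcr3 and Cxcr4 held none of the 4. A match is a string of letters, not a bound site.

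In Mo.6C+, the PBS libraries held 88.2, 72.3, 39.6, 112 and 24.2 CPM of Ccr1. With IL1b they held 1002, 1918 and 1732 CPM, with IL6 254, 728 and 543, and with TNFa 398, 383 and 340. Every cytokine library lay above every PBS library, and the IL1b libraries above all others. These were log2 fold changes of 4.53 ± 0.41 with IL1b (adjusted p = 3.07e-07), 2.92 ± 0.39 with IL6 (3e-04) and 2.48 ± 0.39 with TNFa (5.59e-05). In direct contrasts, IL1b exceeded IL6 by 1.61 ± 0.44 on the log2 scale (adjusted p = 0.0149), and TNFa was lower than IL1b, at -2.05 ± 0.45 (0.00535). The contrast of IL1b and IL6 was lost without IL1b library 2 or IL6 library 1 (adjusted p = 0.0547 and 0.0633). Cxcr2, which GN carry in plenty, was at 4.44 ± 1.30 CPM in the IL1b libraries of Mo.6C+ (n = 3) and at 0.414 ± 0.581 CPM with PBS (n = 5); that rise was called (3.33 ± 1.11, adjusted p = 0.0264). Leaving out PBS library 3 or 4 or IL1b library 1 or 3 lost the Cxcr2 call (adjusted p = 0.051 to 0.0761). So did the replicate number as a block in the fit (0.151). The 5 GN markers had a mean log2 CPM of 1.5 with PBS and 2.50 with IL1b there, and their part in the result was not tested.

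GN raised Ccr1 with IL1b. The PBS libraries held 1297, 1184, 1150, 1069 and 1236 CPM and the IL1b libraries 3714, 5077 and 4325 CPM, with no overlap. The log2 fold change was 1.88 ± 0.14 (adjusted p = 5.45e-08). TNFa gave 1957, 1457 and 1312 CPM and a smaller change, 0.41 ± 0.14 (adjusted p = 0.0349). That call was lost without PBS library 2, 3 or 4 or TNFa library 1 (adjusted p = 0.0559 to 0.243), and with the replicate block (0.131). Monocyte markers in GN had a mean log2 CPM of 2.60 with PBS, 3.72 with IL1b and 3.60 with TNFa. The GN markers themselves were at 12.92, 13.69 and 13.77 in the same order, and the part of both lists was not tested. With IL6 the libraries held 758, 853 and 1056 CPM, all below PBS, but the change of -0.42 ± 0.15 was not called (adjusted p = 0.0882).

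MFpc held 441, 459, 485, 422 and 402 CPM of Ccr1 with PBS, 1147, 942 and 1046 CPM with IL1b and 751, 779 and 681 CPM with IL6. Neither cytokine overlapped with PBS, and the log2 fold changes were 1.24 ± 0.09 (adjusted p = 1.48e-09) and 0.74 ± 0.09 (1.37e-05). TNFa gave 627, 481 and 548 CPM, 1 library within the PBS range, and 0.32 ± 0.09 (adjusted p = 0.00694). Without TNFa library 1 the change was 0.23 (0.0553), and with the replicate block 0.25 (0.059). The 3 cytokines differed from each other in this cell type: IL1b lay over IL6 by 0.50 ± 0.11 (adjusted p = 0.00186), TNFa under IL6 at -0.42 ± 0.11 (0.00366) and TNFa under IL1b at -0.92 ± 0.11 (3.86e-06). Monocyte markers in MFpc had a mean log2 CPM of 2.76 with PBS, 4.01 with IL1b, 2.89 with IL6 and 4.36 with TNFa, and their part was not tested.

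In MFrp, Ccr1 was low, 3.17 ± 3.30 CPM with PBS (n = 5), and the IL1b libraries held 16.0, 33.5 and 33.5 CPM, above every PBS library. The log2 fold change of 3.11 ± 0.84 was called (adjusted p = 0.0246), but not without IL1b library 2 or 3 (0.097 and 0.1), nor without PBS libraries 1 to 3, left out because earlier results of these data listed them as carrying RNA of other cells (0.0868). With the replicate block it was not called either (0.109). Monocyte markers were higher with IL1b: the summed level of the 5 genes ran from 9.8 to 62.2 CPM with PBS, with 0 to 3 of them at 0, and from 140 to 163 CPM with IL1b, with none at 0. GN markers summed to 68.0 to 164 CPM and to 278 to 288 CPM. Their part in the result was not tested.

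Ccr2 (chr9:124101950-124113557, plus strand) moved in opposite directions in monocytes with IL6 and TNFa. In Mo.6C+ the PBS libraries held 1862, 1583, 1344, 2290 and 1755 CPM, the IL6 libraries 3221, 4582 and 4218, and the TNFa libraries 785, 733 and 673. Neither cytokine group overlapped with PBS. The log2 fold change was 1.18 ± 0.19 with IL6 (adjusted p = 0.00121) and -1.27 ± 0.20 with TNFa (6.84e-05), and the direct contrast of TNFa and IL6 was -2.46 ± 0.23 (4.86e-07). IL1b libraries held 908, 1676 and 1610 CPM, partly within the PBS range, and the change of -0.34 ± 0.19 was not called (adjusted p = 0.193). The contrast of IL1b and IL6 was -1.52 ± 0.22 (adjusted p = 0.000122). The monocyte markers of these libraries had a mean log2 CPM of 9.18 with PBS, 9.95 with IL1b, 10.25 with IL6 and 9.45 with TNFa. Red pulp macrophage markers were at 2.50, 4.71, 2.73 and 5.54 in the same order; their part was not tested.

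TNFa also lowered Ccr2 in pDC. PBS libraries held 202, 227, 250, 335 and 391 CPM and TNFa libraries 77.6, 101 and 75.1 CPM, a log2 fold change of -1.73 ± 0.22 (adjusted p = 3.11e-05). Of other types that carry Ccr2, the monocyte markers in pDC had a mean log2 CPM of 2.65 with PBS and 2.56 with TNFa, the NK markers -0.79 and -0.81, and the DC.8+ markers 5.14 and 4.82. In Tgd the fall came with IL1b: PBS libraries held 324, 138, 112, 302 and 131 CPM and IL1b libraries 39.6, 44.5 and 43.1 CPM, at -2.25 ± 0.34 (adjusted p = 0.000877). The PBS libraries of Tgd were split, with 2 near 300 CPM and 3 near 130 CPM, all above the IL1b libraries. The mean log2 CPM of the CD4 T cell markers in Tgd was 5.48 ± 0.23 with PBS (n = 5) and 4.33 ± 0.38 with IL1b (n = 3), and of the NK markers 4.01 ± 0.54 and 4.58 ± 0.23. The Tgd markers found in the table (2 of 5) were lower with IL1b as a mean, at 7.16 ± 0.37 against 8.55 ± 0.36, while their summed level was 1390 to 1780 CPM against 1280 to 1690. Their part was not tested.

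In MFpc, Ccr2 was at 21.0 ± 14.4 CPM with PBS (n = 5) and 8.36 ± 4.89 CPM with TNFa (n = 3), groups that overlapped. The log2 fold change of -1.34 ± 0.52 was called (adjusted p = 0.036), but not by DESeq2 (0.0678) and not without PBS library 1 or 4 or TNFa library 1 or 2 (0.0533 to 0.183). NK, which carry much Ccr2, showed no call: 871 ± 80.4 CPM with PBS (n = 5), 730 ± 128 with IL1b (n = 3), 977 ± 29.5 with IL6 (n = 2) and 744 ± 27.0 with TNFa (n = 3).

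Cx3cr1 (chr9:119901616-120069879, minus strand) fell in Mo.6C+ with each cytokine. PBS libraries held 820, 1078, 1166, 1192 and 1300 CPM. IL1b libraries held 546, 140 and 124 CPM, IL6 libraries 591, 365 and 319, and TNFa libraries 202, 155 and 189, all below the lowest PBS library. Against PBS the change was -2.04 ± 0.40 with IL1b (adjusted p = 0.000685), -1.39 ± 0.38 with IL6 (0.0416) and -2.61 ± 0.41 with TNFa (5.85e-05). The IL6 call was lost without PBS library 2, 3, 4 or 5 or IL6 library 2 or 3 (adjusted p = 0.0722 to 0.202). It was also lost with the replicate block (0.0921). TNFa lay below IL6 at -1.22 ± 0.41 (adjusted p = 0.0271), but not without IL6 library 1 or TNFa library 2 or 3 (0.0586 to 0.118). The overlapping gene Gm33858 fell with IL1b from 17.6 ± 5.47 to 0.680 ± 1.18 CPM (adjusted p = 0.000472) and with TNFa to 5.16 ± 3.26 CPM (0.0398), far below the counts of Cx3cr1.

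TNFa lowered Cx3cr1 in NK as well, from 257, 208, 244, 190 and 155 CPM to 78.7, 90.5 and 26.3 CPM with no overlap, at -1.67 ± 0.29 (adjusted p = 0.000501). Monocyte markers in NK had a mean log2 CPM of 2.03 with PBS and 2.07 with TNFa, and CD8 T cell markers 1.31 and 1.60. Red pulp macrophage markers had 1.69 ± 1.30 and 1.08 ± 0.83, and DC.8+ markers 1.18 ± 0.64 and 0.50 ± 0.20. The part of these lists was not tested. IL1b libraries of NK held 121, 126 and 70.3 CPM, also below every PBS library, but the change of -0.99 ± 0.28 was not called (adjusted p = 0.0558). In MFrp the cytokines differed. PBS libraries held 80.7, 77.7, 58.1, 90.1 and 114 CPM, TNFa libraries 44.5, 17.3 and 49.4 CPM and IL1b libraries 278, 176 and 93.7 CPM. TNFa gave -1.19 ± 0.37 (adjusted p = 0.033) and IL1b 1.12 ± 0.34 (0.0467), and TNFa lay below IL1b at -2.31 ± 0.42 (0.00584). The TNFa call was lost without PBS library 5 or TNFa library 1 or 2 (adjusted p = 0.0514 to 0.141), and with the replicate block (0.0834). Markers of DC.8+, which carry Cx3cr1, had a mean log2 CPM in MFrp of 6.46 with PBS, 5.55 with TNFa and 5.14 with IL1b. In the same order, NK markers were at 5.65 ± 1.66, 6.47 ± 0.12 and 5.92 ± 1.68. CD8 T cell markers were at 3.35, 2.76 and 2.98, and monocyte markers at 1.70, 3.24 and 3.67. These types carry Cx3cr1 too, and the part of all these lists was not tested.

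The MFrp rise with IL1b overlapped with PBS and was the least stable call of Cx3cr1. Leaving out any 1 of PBS libraries 1 to 4 or IL1b library 1 or 2 gave an adjusted p of 0.0684 to 0.328. Without PBS libraries 1 to 3 the log2 fold change was 0.80 and the adjusted p 0.333. In MFrp the monocyte markers summed to 9.8 to 62.2 CPM with PBS and 140 to 163 CPM with IL1b. In Mo.6C+, which carry Cx3cr1, they summed to 4010 to 7270 CPM with IL1b. Their part was not tested.

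Cxcr2 (chr1:74153989-74161246, plus strand) could be tested in MFrp, Mo.6C+ and GN, and was called in Mo.6C+ (with IL1b, above) and in GN. GN held 3635, 4114, 4287, 3822 and 4283 CPM with PBS on the scale of the GN fit; on the scale over all PBS libraries used above these libraries averaged 7983 CPM. IL1b libraries held 7022, 9463 and 8076 CPM and IL6 libraries 2665, 2560 and 3397 CPM, on either side of the PBS range. The log2 fold changes were 1.02 ± 0.12 (adjusted p = 9.04e-06) and -0.49 ± 0.13 (0.0229). Without IL6 library 1 or 2 the IL6 call was lost (adjusted p = 0.111 and 0.157), as it was with the replicate block (0.0892). TNFa libraries held 4628, 3761 and 3950 CPM, within or just above the PBS range (0.03 ± 0.12, adjusted p = 0.87). IL1b exceeded IL6 by 1.51 ± 0.14 (adjusted p = 1.15e-06), and TNFa lay between the other two, over IL6 by 0.52 ± 0.14 (0.00895) and under IL1b at -0.99 ± 0.14 (5.24e-05). The contrast with IL6 was lost without IL6 library 2 or TNFa library 1 (0.0534 and 0.0616). The GN markers, given above for Ccr1, were higher with IL1b and TNFa in these libraries, and their part was not tested.

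Cxcr4 (chr1:128588199-128592293, minus strand) fell in the same GN libraries with IL1b and TNFa. PBS libraries of GN held 10.9, 24.4, 13.5, 27.6 and 28.7 CPM. IL1b libraries held 2.7, 1.25 and 0.766 CPM and TNFa libraries 2.11, 5.24 and 7.68 CPM, all below the PBS range. Against PBS the change was -3.70 ± 0.59 with IL1b (adjusted p = 0.000176) and -2.07 ± 0.53 with TNFa (0.00536). With the replicate number as a block in the fit, the TNFa change was -1.67 and not called (adjusted p = 0.0523). IL6 libraries held 15.3, 8.89 and 9.27 CPM and lay above IL1b, whose contrast with IL6 was -2.79 ± 0.60 (adjusted p = 0.00384). Over all genes tested in GN the median log2 fold change with TNFa was -0.21, and with IL1b -0.05.

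In pDC, TNFa raised Cxcr4 from 2.72, 1.27, 1.45, 1.85 and 1.36 CPM to 6.57, 6.49 and 12.7 CPM, with no overlap, at 2.29 ± 0.50 (adjusted p = 0.00464). Without TNFa library 3 it was 1.90 (0.0629). The responses of pDC and GN to TNFa differed by 4.53 ± 1.05 on the log2 scale in a fit of all screen libraries (adjusted p = 0.000416), where 17.9% of genes differed between these types. This pair was compared because its calls went opposite ways in these same libraries, so the p-value adds no separate evidence. No other screen library outside GN exceeded 12.7 CPM of Cxcr4.

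**Figure D3:**
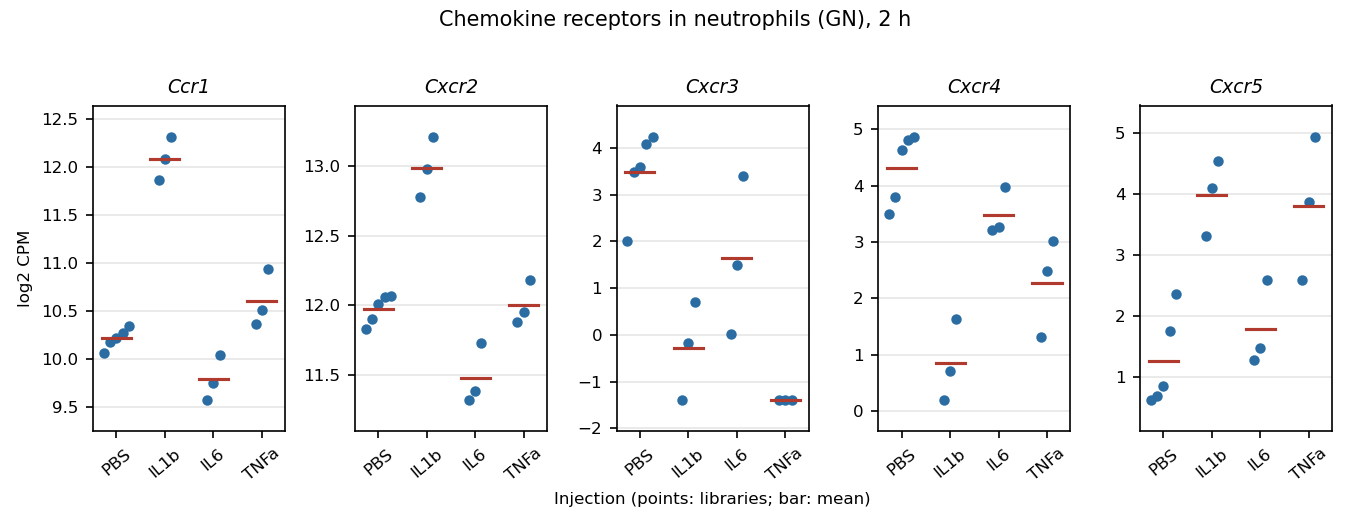
Log2 CPM of 5 receptors in GN 2 h after PBS, IL1b, IL6 or TNFa; points are libraries and red bars means. With IL1b, Ccr1, Cxcr2 and Cxcr5 lie above every PBS library and Cxcr3 and Cxcr4 below.

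Cxcr3 (chrX:101731535-101734269, minus strand) was called only downward. In GN the PBS libraries held 16.6, 11.7, 10.8, 3.64 and 18.4 CPM, the IL1b libraries 0.507, 1.25 and 0 CPM, and the 3 TNFa libraries no count. The log2 fold change with IL1b was -4.35 ± 1.07 (adjusted p = 0.00826). With TNFa, Cxcr3 was at least 13.5-fold lower, taking 3 counts per library as the floor, which covers counting error only (adjusted p = 0.000758). Of other types that carry Cxcr3, NK markers in GN summed to 0.38 to 2.53 CPM with PBS and 0.264 to 0.922 CPM with TNFa. The mean log2 CPM of the CD8 T cell markers was 0.16 and 0.09, and of the pDC markers -1.14 and -1.28. Tgd markers had -0.76 and -0.71. The DC.8+ markers were at 2.29 ± 0.19 with PBS, 2.25 ± 0.22 with IL1b and 1.17 ± 0.34 with TNFa. The part of these lists was not tested.

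DC.8+ held 109, 72.5, 41.4 and 62.7 CPM of Cxcr3 with PBS, 11.8 and 21.4 CPM with IL1b and 6.41, 26.5 and 14.8 CPM with TNFa, both below the PBS range. The log2 fold changes were -2.09 ± 0.49 (adjusted p = 0.0208) and -2.15 ± 0.42 (0.00255). The IL1b call was lost without IL1b library 2 or 3 (adjusted p = 0.259 and 0.0546), and without the 5 DC.8+ libraries listed earlier as carrying RNA of other cells (0.0889). pDC markers in DC.8+ had a mean log2 CPM of 5.89 ± 0.33 with PBS, 5.34 ± 0.52 with IL1b and 6.18 ± 0.69 with TNFa. In the same order, NK markers had 3.31 ± 1.59, 0.29 ± 0.37 and 4.46 ± 1.20, and CD8 T cell markers 4.39 ± 0.90, 3.47 ± 1.80 and 5.77 ± 0.25. The CD8 T cell list holds Cd8a, which CD8+ dendritic cells carry too. With TNFa the DC.8+ markers themselves were lower, at 7.80 ± 0.57 against 9.28 ± 0.51 with PBS and 9.32 ± 0.08 with IL1b, and red pulp macrophage markers were at 6.90 ± 0.42 against 5.99 ± 0.93. Their part was not tested.

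Among lymphocytes the falls of Cxcr3 were smaller. In NK, PBS libraries held 122, 100, 107, 118 and 129 CPM and TNFa libraries 67.8, 71.1 and 67.6 CPM, at -0.74 ± 0.15 (adjusted p = 0.00187). IL6 libraries of NK held 154 and 178 CPM, above every PBS library, and TNFa lay below IL6 at -1.27 ± 0.18 (adjusted p = 0.000177). In Tgd, PBS libraries held 125, 120, 82.1, 156 and 128 CPM, IL1b libraries 69.5, 67.3 and 59.1 CPM and TNFa libraries 75.1, 70.1 and 77.6 CPM. CD8 T cell markers in Tgd had a mean log2 CPM of 7.14 with PBS, 6.80 with IL1b and 6.75 with TNFa, and 3 of the 5 are CD3 chains that Tgd carry too. The lower mean of the Tgd markers with IL1b, given above for Ccr2, is from these same libraries; with TNFa it was 8.23 ± 0.14. The falls were -0.90 ± 0.18 (adjusted p = 0.00778) and -0.72 ± 0.17 (0.0245), with no overlap. Leaving out PBS library 4 or any TNFa library lost the TNFa call (adjusted p = 0.0594 to 0.117), and leaving out IL1b library 3 the IL1b call (0.0533). The replicate block lost both, at 0.178 with TNFa and 0.0724 with IL1b.

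Cxcr5 (chr9:44511787-44561877, minus strand) was called only upward at 2 h, in 4 cell types with TNFa and in GN with IL1b. Its exons share 110 bases with Bcl9l on the other strand. In MZB, PBS libraries held 882, 987, 1103 and 971 CPM and TNFa libraries 1280, 1287 and 1242 CPM, at 0.37 ± 0.09 (adjusted p = 0.0345). That small call was lost when any 1 of PBS libraries 1, 2 and 4 or of the TNFa libraries was left out (adjusted p = 0.09 to 0.134). B.fo held 736 ± 65.1 CPM with PBS (n = 5) and 789 ± 35.1 CPM with TNFa (n = 3), not called (adjusted p = 0.63). In Treg, PBS libraries held 76.2, 45.9, 56.8, 36.9 and 56.5 CPM and TNFa libraries 110, 138 and 145 CPM, at 1.27 ± 0.25 (adjusted p = 0.0036). The B cell markers had a mean log2 CPM of 0.54 with PBS and -0.01 with TNFa in Treg.

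In GN, Cxcr5 stood at 1.23, 1.41, 4.75, 1.15 and 2.98 CPM with PBS, 9.46, 22.8 and 16.7 CPM with IL1b and 14.2, 5.59 and 30.1 CPM with TNFa. The groups did not overlap with PBS, and the log2 fold changes were 2.82 ± 0.60 (adjusted p = 0.00232) and 2.85 ± 0.60 (0.00122). The 6 follicular B cell markers summed to 0.884 to 13.1 CPM with PBS, 3.04 to 5.94 CPM with IL1b and 4.92 to 8.71 CPM with TNFa, with 1 to 3 of them at 0 in each group. Bcl9l was at 2.7 ± 1.57 CPM with PBS, 1.47 ± 0.728 with IL1b and 4.66 ± 4.58 with TNFa, and neither change was called (adjusted p = 0.549 and 0.507). In DC.8+, 3 of 4 PBS libraries held no Cxcr5 count and the other 0.385 CPM, while TNFa libraries held 10.3, 4.52 and 4.52 CPM. The fitted log2 fold change of 5.88 ± 1.36 (adjusted p = 0.00812) rests on a PBS group near 0. B cell markers in DC.8+ had a mean log2 CPM of 1.29 with PBS and 1.19 with TNFa. CD8 T cell markers, whose cells carry some Cxcr5, were higher in the TNFa libraries, at 5.77 ± 0.25 against 4.39 ± 0.90. That list holds Cd8a, which CD8+ dendritic cells carry too. Treg markers were also higher, at 1.59 ± 0.26 against -0.08 ± 0.52, and the part of both lists was not tested.

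A single fit of all screen libraries tested whether the response depended on cell type. With IL1b, 6 of the 7 receptors were called, beside 22.8% of all genes: Ccr1 (adjusted p = 2.72e-10), Cx3cr1 (0.000278), Ccr2 (0.000909), Cxcr4 (0.00827), Cxcr3 (0.0161) and Cxcr5 (0.0342), but not Cxcr2 (0.457). With IL6, 1 receptor was called, Ccr1 (5.23e-06), beside 6.87% of genes. With TNFa, 5 were called, beside 36.3% of genes: Ccr1 (5.15e-05), Cxcr3 (0.00559), Cxcr4 (0.0146), Cx3cr1 (0.0197) and Cxcr5 (0.0212), not Ccr2 (0.369) or Cxcr2 (0.597). The Cx3cr1 responses of MFrp and Mo.6C+ to IL1b, which went in opposite directions, differed by 3.17 ± 0.74 (adjusted p = 0.0017), beside 6.15% of genes. This pair too was picked for its opposite calls in these same libraries, so the p-value adds no separate evidence. In direct contrasts of cytokines within a cell type, IL1b was higher than IL6 for 7 of 61 pairs of receptor and type and lower for 4 (all pairs: 3.06% and 2.14%). TNFa was higher than IL1b for 0 and lower for 6 by edgeR (2.17% and 2.33%); 4 were higher at an unadjusted p under 0.05, and DESeq2 called 2 of them, Cxcr4 in GN and Ccr2 in Tgd. TNFa was higher than IL6 for 6 of 66 and lower for 8 (5.41% and 5.18%). The joint IL1b call of Cxcr5 was lost with no filter on low counts (adjusted p = 0.0672).

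**Figure D4:**
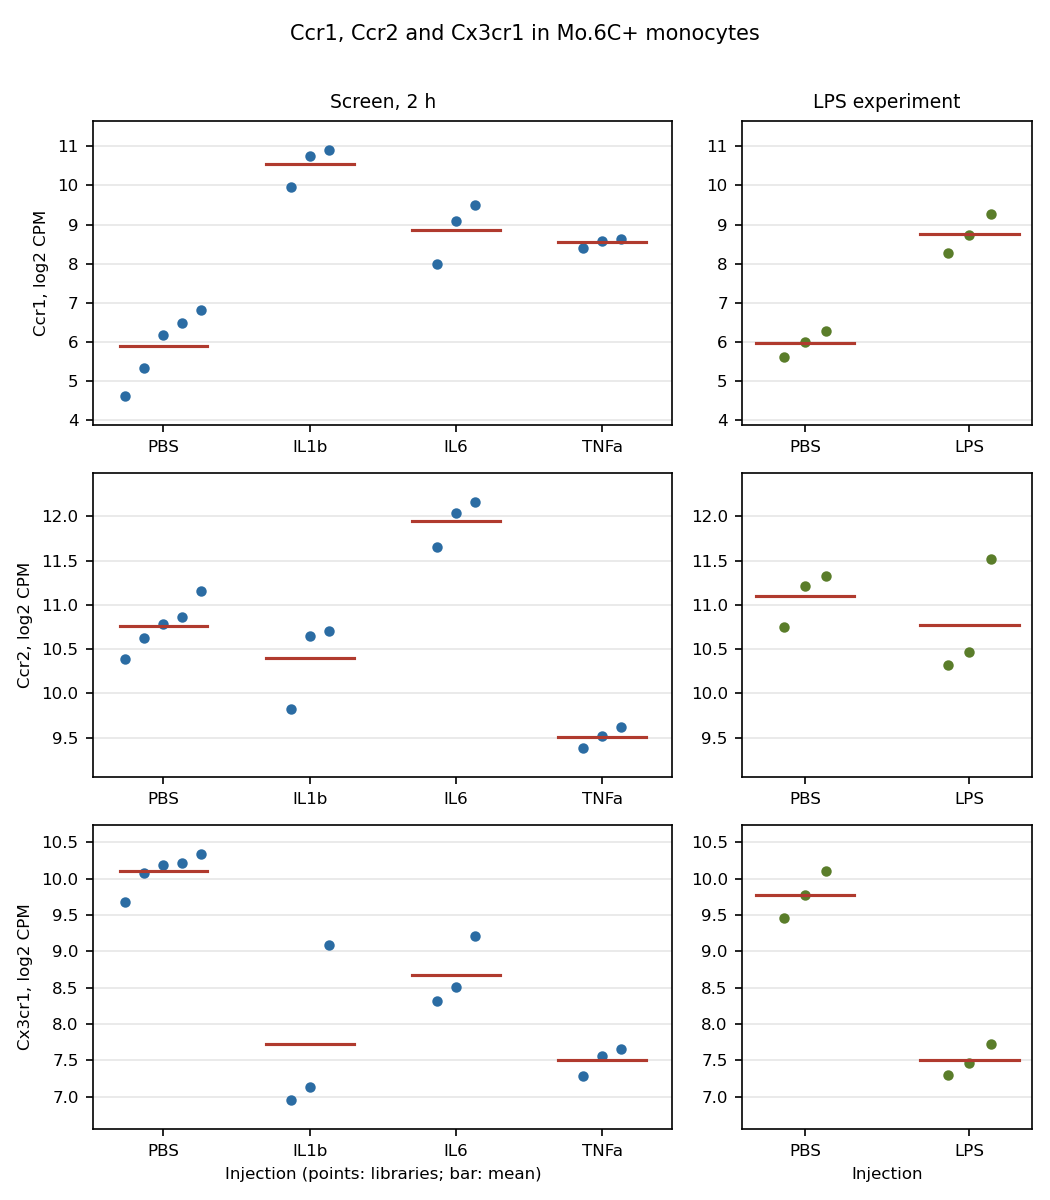
Log2 CPM of Ccr1, Ccr2 and Cx3cr1 in Mo.6C+ libraries of the screen (left, 2 h after PBS, IL1b, IL6 or TNFa) and of the LPS experiment (right); points are libraries and red bars means, and the experiments were scaled separately. Ccr1 is above and Cx3cr1 below PBS with every agent, while Ccr2 is above PBS with IL6 and below it with TNFa.

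The time course asked how long the TNFa response of Mo.6C+ and MFpc lasts. All times share the same 2 PBS libraries, taken at 24 h. In Mo.6C+, Ccr1 was raised at every time. The PBS libraries held 29.3 and 43.2 CPM, and the TNFa libraries 669 and 517 CPM at 2 h, 144 and 194 at 4 h, 243 and 257 at 8 h and 87.9 and 210 at 24 h. No TNFa library fell into the PBS range. The markers of GN, the type with the most Ccr1, had a mean log2 CPM of 1.22 with PBS and 6.56, 4.05, 4.25 and 4.47 at the 4 times, so they too were highest at 2 h; their part was not tested. Of all genes, 40.3%, 32.5%, 22.0% and 4.46% were called against PBS at these times, and 10.3%, 33.7% and 36.4% between 2 h and the later ones. The log2 fold changes were 4.03 ± 0.39 (adjusted p = 1.29e-05), 2.22 ± 0.36 (0.000621), 2.78 ± 0.37 (0.000262) and 2.04 ± 0.36 (0.00697), and the later times lay below 2 h (-1.81 ± 0.35, -1.25 ± 0.34 and -1.99 ± 0.35). The step to 4 h was lost without TNFa library 1 of 4 h (adjusted p = 0.0863), and that to 8 h without either 8 h library or library 1 of 2 h (0.0532 to 0.0765). Without PBS library 1 or TNFa library 2 of 24 h, the call at 24 h was lost (adjusted p = 0.12 and 0.0514).

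Ccr2 and Cx3cr1 in Mo.6C+ were lowest at 4 h. Ccr2 went from 1745 and 2071 CPM with PBS to 1089 and 797 CPM at 2 h, 189 and 340 at 4 h, 1103 and 452 at 8 h and 956 and 1141 at 24 h. It fell at 2 h (-1.02 ± 0.37, adjusted p = 0.0466), 4 h (-2.85 ± 0.40, 0.000192) and 8 h (-1.30 ± 0.38, 0.0271), and 4 h lay below 2 h (-1.83 ± 0.38, 0.0117), though not without library 1 of either time (0.115 and 0.0626). At 24 h the change was -0.86 ± 0.37 and not called (adjusted p = 0.256). With the replicate block the change at 2 h was -1.03 and not called (0.0554). The 2 h call was lost without any 1 of the 4 libraries (adjusted p = 0.0769 to 0.211), and the 8 h call without either PBS library or TNFa library 2 (0.0813 to 0.165).

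Cx3cr1 went from 980 and 880 CPM to 120 and 196 CPM at 2 h, 34.3 and 93.2 at 4 h, 222 and 144 at 8 h and 406 and 334 at 24 h. The falls were -2.56 ± 0.40 (adjusted p = 0.000385), -3.87 ± 0.43 (3.71e-05) and -2.35 ± 0.40 (0.0013), and -1.33 ± 0.38 at 24 h was not called (0.0764). All TNFa libraries lay below both PBS libraries. The 4 h libraries lay below those of 2 h, but that step was not called. From 2 h to 24 h Cx3cr1 rose by 1.23 ± 0.39 (adjusted p = 0.0256), a call lost without either 24 h library or library 1 of 2 h (0.0525 to 0.168). The monocyte markers in these libraries had a mean log2 CPM of 9.58 with PBS and 10.42, 9.77, 9.15 and 9.51 at the 4 times.

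Cxcr4, Cxcr2 and Cxcr5, low in Mo.6C+, each had 1 call against PBS, at 2 h for the first pair and at 24 h for Cxcr5. Cxcr4 went from 8.62 and 5.78 CPM to 2.02 and 1.78 CPM at 2 h (-1.92 ± 0.71, adjusted p = 0.0483), then to 11.9 and 26.1 CPM at 4 h and 8.28 and 26.7 at 8 h. The 4 h and 8 h libraries lay above those of 2 h by 3.31 ± 0.70 (adjusted p = 0.0121) and 3.19 ± 0.69 (0.00405), though neither time was called against PBS (0.0947 and 0.149). The step to 4 h was lost without library 2 of 4 h or library 1 of 2 h (0.088 and 0.072). Its 2 h call was lost without any 1 of the 4 libraries (0.0738 to 0.197). Cxcr2 was raised at 2 h, from 0.55 and 1.20 to 10.9 and 5.13 CPM (3.17 ± 0.83, adjusted p = 0.00935), and the mean log2 CPM of the GN markers was 1.22 with PBS and 6.56 at 2 h; their part was not tested. Without PBS library 1 or TNFa library 1 that call was lost (0.0871 and 0.0569). Cxcr5 fell at 24 h from 3.67 and 4.98 to 0.632 and 0.351 CPM (-3.06 ± 0.74, adjusted p = 0.0347), with B cell markers at 3.13 with PBS and 1.16 at 24 h; the call was lost without any 1 of the 4 libraries (0.141 to 0.227). In all, 13 of the 28 tests of Mo.6C+ against PBS were called, beside 24.8% of all gene and time pairs.

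**Figure D5:**
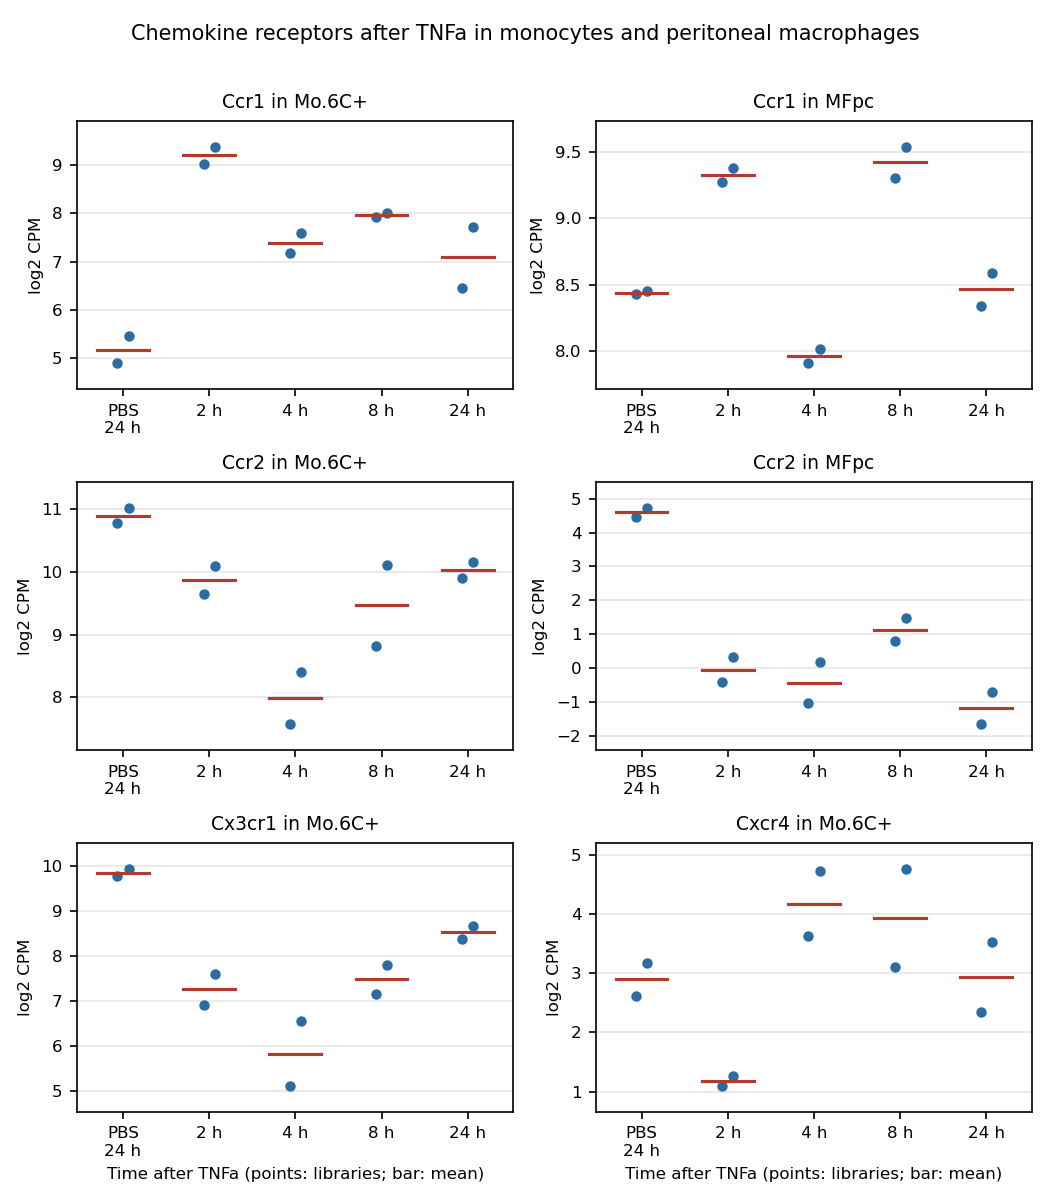
Log2 CPM after TNFa at 2, 4, 8 and 24 h, and with PBS at 24 h, for Ccr1 and Ccr2 in Mo.6C+ and MFpc and for Cx3cr1 and Cxcr4 in Mo.6C+; points are the 2 libraries of a group, red bars means, and each panel has its own scale. Ccr2 and Cx3cr1 of Mo.6C+ are lowest at 4 h, and Ccr2 of MFpc is low at all 4 times. The step of Cx3cr1 from 2 h to 4 h was not called.

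MFpc could be tested for Ccr1 and Ccr2 alone, and 7 of 8 tests were called, beside 26.7% of all pairs (36.2%, 35.6%, 28.4% and 6.67% at the 4 times). Ccr1 held 349 and 344 CPM with PBS, 667 and 615 at 2 h, 240 and 260 at 4 h, 629 and 743 at 8 h and 386 and 324 at 24 h. It was raised at 2 h (0.89 ± 0.16, adjusted p = 0.000885) and 8 h (0.99 ± 0.16, 0.000672), lowered at 4 h (-0.47 ± 0.16, 0.0356) and not called at 24 h, with 1 library on either side of the PBS libraries (0.04 ± 0.16, 0.931). The change from 2 h to 4 h was -1.36 ± 0.16 (adjusted p = 0.000461, beside 9.51% of genes) and from 2 h to 24 h -0.85 ± 0.16 (0.0012, beside 34.4%). The call at 4 h against PBS was lost without any 1 of the 4 libraries (0.102 to 0.201).

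Ccr2 in MFpc was lowered at every time, from 26.1 and 21.9 CPM with PBS to at most 2.48 CPM in any TNFa library. Against PBS these were changes of -5.05 ± 0.64 (adjusted p = 5.72e-05), -5.53 ± 0.65 (3.85e-05), -3.59 ± 0.54 (0.000401) and -7.17 ± 0.76 (0.00014) at 2, 4, 8 and 24 h, and the last rests on libraries with 0 and 0.303 CPM. The monocyte markers in MFpc had a mean log2 CPM of 2.60 with PBS and 3.77, 4.26, 5.29 and 4.10 at the 4 times. The NK, T.8 and pDC markers each summed to at most 0.688 CPM in any library. The DC.8+ list was at 3.28 with PBS and lower after TNFa, at 2.93, 2.62, 2.45 and 3.05, and the Treg list at -0.74 with PBS and -0.74, -0.86, -0.88 and -1.14. Their part was not tested.

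Set side by side, the responses of Mo.6C+ and MFpc differed for both receptors at every time. The difference (Mo.6C+ minus MFpc) for Ccr1 ran from 1.87 ± 0.41 at 8 h (adjusted p = 0.00686) to 3.20 ± 0.42 at 2 h (0.000106), and for Ccr2 from 2.35 ± 0.62 at 8 h (0.0209) to 6.32 ± 0.90 at 24 h (0.000494), while 2.89% to 9.64% of all genes differed. Without PBS library 1 of Mo.6C+, the Ccr1 difference was not called at 8 h (adjusted p = 0.0511) or 24 h (0.0764), nor at 24 h without TNFa library 2 of Mo.6C+ (0.0529). The Ccr2 difference at 4 h was lost without any 1 of the 4 PBS libraries, TNFa library 2 of Mo.6C+ or either TNFa library of MFpc (0.0728 to 0.312). At 8 h it was lost without either PBS library or TNFa library 1 of Mo.6C+, or PBS library 1 or TNFa library 2 of MFpc (0.0521 to 0.127). The 2 h responses to TNFa in the screen and the course, each against its own PBS, differed for 0 of 9 receptor and type pairs by edgeR, beside 1.18% of genes in Mo.6C+ and 0.704% in MFpc. The differences (course minus screen) were 1.62 ± 0.61 for Ccr1 (adjusted p = 0.19) and -2.67 ± 0.83 for Cxcr4 (0.125) in Mo.6C+, and -3.72 ± 1.00 for Ccr2 in MFpc (0.102). At an unadjusted p under 0.05 there were 4, and DESeq2 called 2, Ccr1 in MFpc and Cxcr4 in Mo.6C+.

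LPS moved Ccr1 and Cx3cr1 of Mo.6C+ the way the cytokines did. Ccr1 held 76.2, 63.7 and 48.6 CPM with PBS and 619, 427 and 310 CPM with LPS, at 2.85 ± 0.32 (adjusted p = 0.000407). Cx3cr1 held 879, 703 and 1102 CPM with PBS and 212, 176 and 157 CPM with LPS, at -2.30 ± 0.26 (0.000419). Neither pair of groups overlapped. GN markers had a mean log2 CPM of 1.86 with PBS and 3.31 with LPS, and monocyte markers 9.33 and 10.75; their part was not tested. Ccr2 was not called: it held 2361, 2576 and 1724 CPM with PBS and 2933, 1415 and 1281 CPM with LPS, and the groups overlapped (-0.24 ± 0.33, adjusted p = 0.667). Of 5 receptors tested, 2 were called, beside 18.6% of genes. Against the cytokine responses of the screen, each with its own controls, the LPS response differed from that to IL6 for Ccr2, at -1.39 ± 0.36 (adjusted p = 0.0162, beside 9.92% of genes), and from those to IL1b and TNFa for 0 receptors by edgeR (5.11% and 6.64% of genes). At an unadjusted p under 0.05, 1 differed from IL1b and 2 from TNFa, and DESeq2 called these 3. The Ccr2 difference from IL6 was lost without IL6 library 2 or LPS library 2 or 3 (adjusted p = 0.0509 to 0.0615). For Ccr2 the difference from TNFa was 1.07 ± 0.36 (adjusted p = 0.0844), and for Ccr1 that from IL1b -1.65 ± 0.56 (0.103). The time after LPS is not known, so the time may differ too.

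The other genes of the pathway were counted from 3 lists. Of the 19 chemokines that bind these receptors, 33 of 79 tests rose and 1 fell with IL1b, 1 of 82 rose and 3 fell with IL6, and 42 rose and 4 fell with TNFa, beside the shares of all genes given above. In Mo.6C+ their median log2 fold change was 3.30 with IL1b, 0.00 with IL6 and 4.69 with TNFa, against -0.04, 0.01 and -0.04 over all genes tested. Cxcl10, a Cxcr3 ligand, rose in 7 of 9 cell types with TNFa, in Mo.6C+ from 8.66 to 225 CPM (4.69 ± 0.52, adjusted p = 1.64e-06). Cxcl2, a Cxcr2 ligand, rose in all 5 types tested with TNFa and in 4 of 5 with IL1b; in GN, which carry Cxcr2, it went from 1.31 to 362 CPM with IL1b (8.23 ± 0.52, adjusted p = 5.23e-09). With LPS, 8 of 11 ligands tested in Mo.6C+ rose, with a median of 4.50 against -0.06 over all genes. Ccl2, the main Ccr2 ligand, rose in 4 of 5 types with IL1b, in Mo.6C+ from 4.33 to 299 CPM (6.11 ± 0.59, 6.45e-07).

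Of 17 other chemokine receptors, 13 of 101 tests rose and 6 fell with IL1b, 4 of 111 rose and 1 fell with IL6, and 16 rose and 12 fell with TNFa. Over all gene and cell type pairs these shares were 5.76% and 4.26% with IL1b, 1.46% and 0.950% with IL6 and 8.26% and 7.95% with TNFa. The chemokine-binding receptor Ccrl2 rose in 7 of 14 types with TNFa, in GN from 11.9 to 1088 CPM (6.52 ± 0.42, adjusted p = 2.49e-09). Of 23 transducers and brakes in the table, 29 of 282 tests rose and 35 fell with IL1b, 5 of 304 rose and 20 fell with IL6, and 46 rose and 59 fell with TNFa, to be read beside the same shares. The brake Rgs14 fell in 10 of 14 types with TNFa, in Mo.6C+ from 148 to 10.4 CPM (-3.82 ± 0.28, adjusted p = 1.9e-08), and Rgs1, another brake, rose in 7 of 11 and fell in 1, MFpc.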

How the data were processed

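The deposited table holds raw counts per gene for 209 libraries. The submitters' processing notes name STAR 2.7.3a, featureCounts and the mm10 build. Annotation release, strand setting and handling of multi-mapping reads: not given in the sources used here. The 7 receptors and the lists of ligands, other receptors, transducers and markers were chosen with earlier results of these data known. Titles name the spleen for libraries whose tissue label names the peritoneal cavity; titles were followed.

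Each cell type of the screen, each cell type of the course and the LPS experiment were fitted separately in edgeR 4.0.16 (R 4.3.3) with TMM scaling, filterByExpr, the quasi-likelihood test and Benjamini-Hochberg adjustment over all genes tested, at 0.05. The SE is the log2 fold change over the square root of F. Log2 CPM used a prior count of 2, and markers are means of log2 CPM. Cell types were compared in 1 fit of the whole screen, and experiments in joint fits. Levels with PBS used TMM over all PBS libraries of the screen. Named besides the members were the 3 genes most like each in pattern and, of each list, those called in the most cell types. Not every gene that this rule names is reported here. The code was checked on simulated counts. Replicate pairs of a group (251) differed by 2.94 to 68.5 in chi-square per degree of freedom, so none was merged. Library totals (1094567 to 9291121 counts) limit low genes. Coordinates are from GENCODE vM21 (GRCm38), which matched 52936 of 55011 symbols, and promoters from RefSeq.

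Same-numbered libraries did not deviate together (263 pairs, median r 0.00, range -0.28 to 0.33), so the number was not used as a block. Alternatives were DESeq2 1.42.0, its size factors in edgeR, no filter, only the groups compared, a replicate block, each library left out, libraries with RNA of other cells left out, and levels per raw total.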

Additional observations from a re-analysis of the deposited data

Results flagged for a closer look

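In 4 of 66 groups of 4 or 5 PBS libraries, 1 library stood apart from the rest in log2 CPM of a receptor. The rule flags about 1 in 20 groups where values are normally spread. That rate does not hold for the MFrp, DC.8+ and NK groups below, where libraries without a count are tied. In MFrp, PBS library 3 was at 3.07 for Cxcr2 and the others at -1.07 to -0.02. In DC.8+, PBS library 4 was at -0.46 for Cxcr5 and the others, with no count, at -1.54. In NK, PBS library 4 was at 2.36 for Cxcr5 and the others at -1.22 to -0.36. In T.8, PBS library 3 was at 5.31 for Cxcr5 and the others at 3.88 to 4.01.

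Responses differed between cell types by edgeR's joint test over the screen. The adjusted p with IL1b was 2.72e-10 for Ccr1, 0.000909 for Ccr2, 0.000278 for Cx3cr1, 0.0161 for Cxcr3, 0.00827 for Cxcr4 and 0.0342 for Cxcr5. With IL6 it was 5.23e-06 for Ccr1. With TNFa it was 5.15e-05 for Ccr1, 0.0197 for Cx3cr1, 0.00559 for Cxcr3, 0.0146 for Cxcr4 and 0.0212 for Cxcr5. Cx3cr1 rose in MFrp and fell in Mo.6C+ with IL1b (adjusted p of the difference 0.0017), and Cxcr4 rose in pDC and fell in GN with TNFa (0.000416).

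The course responses of Mo.6C+ and MFpc differed at 2, 4, 8 and 24 h, with adjusted p of 0.000106, 0.000297, 0.00686 and 0.00995 for Ccr1 and 0.00193, 0.0429, 0.0209 and 0.000494 for Ccr2. The Ccr2 response of Mo.6C+ to LPS differed from that to IL6 (adjusted p = 0.0162).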

How the results depend on the processing

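Of 60 calls of a receptor against PBS by edgeR, 38 were kept under every alternative run, 59 by DESeq2, 49 with a replicate block and 39 in every fit that left out 1 library; 0 changed direction. The replicate block changed the count of calls by more than 1.5 times for IL6 alone, from 5 to 3 calls; the block gave 12 calls with IL1b against 14, and 17 with TNFa against 19. With no filter on low counts, calls were 25 against 14 with IL1b, 57 against 31 between cytokines, 4 against 1 for LPS against the cytokines and 2 against 0 for 2 h in both experiments. DESeq2 also called 4 of the LPS differences and 2 of the 2 h differences. The cause was not tested. Leaving out 1 library gave 12 to 15 calls with IL1b, 4 to 5 with IL6, 17 to 20 with TNFa, 29 to 32 between cytokines and 2 to 3 with LPS. It gave 7 to 14 in the course of Mo.6C+ (7 without PBS library 1), 6 to 7 in that of MFpc, 5 to 11 for later times against 2 h (5 without library 1 of 2 h), 4 to 8 between these cell types (4 without PBS library 1 of Mo.6C+), 0 to 2 for LPS against cytokines and 0 to 1 for 2 h in both experiments. Where that left 1 library in a group, the lone library was assumed to vary like the others. Per raw library total, PBS levels in GN were 1420 CPM of Ccr1, 4814 of Cxcr2 and 25.3 of Cxcr4, against 2359, 7983 and 41.4, and Cxcr5 in MZB was 984 against 869. DESeq2, the block, leaving out libraries and fits of only the groups compared were not run for the fit of the whole screen. Receptors under about 1 CPM rest on few counts.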
